A study of Mus musculus with 6 samples.

Results

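The genes described here are 9 of the 41605 gene rows that each library holds: the neurotrophic factors Bdnf, Ntf3, Gdnf, Artn, Cntf and Lif, and the receptors Gfra1, Ntrk2 and Ntrk3. They were taken by symbol, each with 1 row in every library, and not by their values. The question was which cells of the mouse sciatic nerve hold each transcript at postnatal day 1 (P1) and at postnatal day 60 (P60), and where detection was too low to call.

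Neurotrophic factors are secreted proteins that support the survival, growth and function of neurons, and in nerves they also act on glia. Neurotrophins act through Trk receptor tyrosine kinases: BDNF through TrkB, the product of Ntrk2, and the product of Ntf3 mainly through TrkC, the product of Ntrk3. GDNF and artemin (Artn) bind co-receptors of the GFRA family, GFRA1 being that of GDNF, and signal with the kinase RET. CNTF and LIF are cytokines of the interleukin-6 family that signal through LIFR and gp130 (Il6st), CNTF with its own co-receptor, Cntfr. Cntf is known in adult nerve as a product of myelinating Schwann cells, and several of the other factors are known to rise in nerve after injury, which was not part of these samples.

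Cells were dissociated from the nerves of mice at P1 and P60, with 3 libraries per age that the labels number as biological replicates, and counted by unique molecular identifiers (UMIs) with the 10x Chromium 3′ chemistry. All groups carried the same transgenes on the C57bl/6J background: a Cre transgene active in Schwann cells, a Cre-dependent YFP reporter (ReYFP), which the Cre turns on in these cells, and βAct-DsRed, which marks every cell. Each suspension pooled males and females in equal numbers, and DsRed-positive cells were sorted, with part of the Schwann cells removed in the sort at P1. The cell bodies of the sensory and motor neurons that these factors support lie outside the nerve, so neurons were not among the cells, and age cannot be told apart from whatever else differed between the libraries of the ages.

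After a filter on genes per cell the libraries held 3435 to 4586 cells, with a median of 3627 to 6840 UMIs per cell. P60 replicate 3 stood apart: it had the lowest median (3627 UMIs), and 16.2% of its cells had more than 10% mitochondrial counts, against 2.97% and 4.84% in the other P60 libraries and 9.56% to 13.6% at P1. Any pair of libraries shared 14 to 33 cell barcodes, at most 0.952% of a library. Cells were clustered within each age without the 9 genes, and clusters were named from marker lists as Schwann cells, fibroblasts (endoneurial, perineurial and epineurial where a subtype could be given), endothelial cells, mural cells (pericytes and vascular smooth muscle together) and immune cells. A class name means only that its cells resemble the class in these markers.

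Schwann cells numbered 3203 at P1 and 420 at P60, endoneurial fibroblasts 1327 and 859, perineurial fibroblasts 880 and 2458, epineurial fibroblasts 2327 and 4536, endothelial cells 726 and 1555, mural cells 599 and 863, and immune cells 1050 and 1387. The defining markers were found at both ages. For example, the 9 Schwann markers summed to 24490 to 24829 CPM (counts per 1000000 UMIs of the class) in P1 Schwann cells and 338 to 428 CPM in P1 immune cells. Fibroblast markers were found in every class. The 6, collagen genes among them, summed to 4665 to 8867 CPM in P60 Schwann cells and 1774 to 2123 CPM in P60 immune cells. Whether this RNA came from fibroblasts or from the cells themselves was not tested. Of the Schwann cells, 16.3% at P1 and 24.3% at P60 carried markers of another class above the limit used here, and the age differences in Schwann cells below are also given without them. Markers of fibroblast subtypes moved with age in Schwann cells: the 8 epineurial markers summed to 57.4 to 73.6 CPM at P1 and 1722 to 4112 CPM at P60, with 0 of the 8 undetected at either age, and the 6 endoneurial markers to 82.1 to 86.5 and 325.4 to 696.7 CPM, with 2 of the 6 at 0 at P60. P1 perineurial fibroblasts had less of their own 8 markers (453.5 to 515.4 CPM) than of the 8 epineurial markers (2093 to 2243 CPM). At P60 their own markers summed to 5179 to 5304 CPM. All differences between the ages in this class are therefore between cells that differ in these markers.

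A class was called as holding a transcript when its 3 libraries of an age had at least 10 UMIs in all and at least 1 in each, and when every library was above the level that RNA carried over from the class with the highest level would give. With under 10 UMIs the transcript was too low to call in that class, and above that but not past the carried-over level it was not called. Levels are CPM: the gene's share of the UMIs of its class in a library, scaled as counts per 1000000. Since classes come from clusters of the same cells, differences between classes are described and not tested, and levels of different genes are not compared, because counts from the 3′ end are not per length. Of the 126 combinations of 9 genes, 7 classes and 2 ages, 47 held the transcript, 13 were not called and 66 were too low to call.

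Most of the factors were rare, and the classes called for them did not include Schwann cells. Over all cells of both ages Ntf3 had 1144 UMIs, Lif 203, Bdnf 157, Artn 113, Gdnf 17 and Cntf 2. In Schwann cells all 6 factors were too low to call at both ages. At P60 this does not mean absent, because the class was small. There Bdnf, Lif and Ntf3 averaged 1.70, 1.37 and 1.01 CPM on only 2, 2 and 1 UMIs. The larger class of P60 epineurial fibroblasts was called for Artn at 1.11 CPM, on 27 UMIs. The receptors were more widely found, with 12848 UMIs of Ntrk2, 3206 of Ntrk3 and 1793 of Gfra1, and all 3 were held by Schwann cells at both ages.

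**Figure D1:**
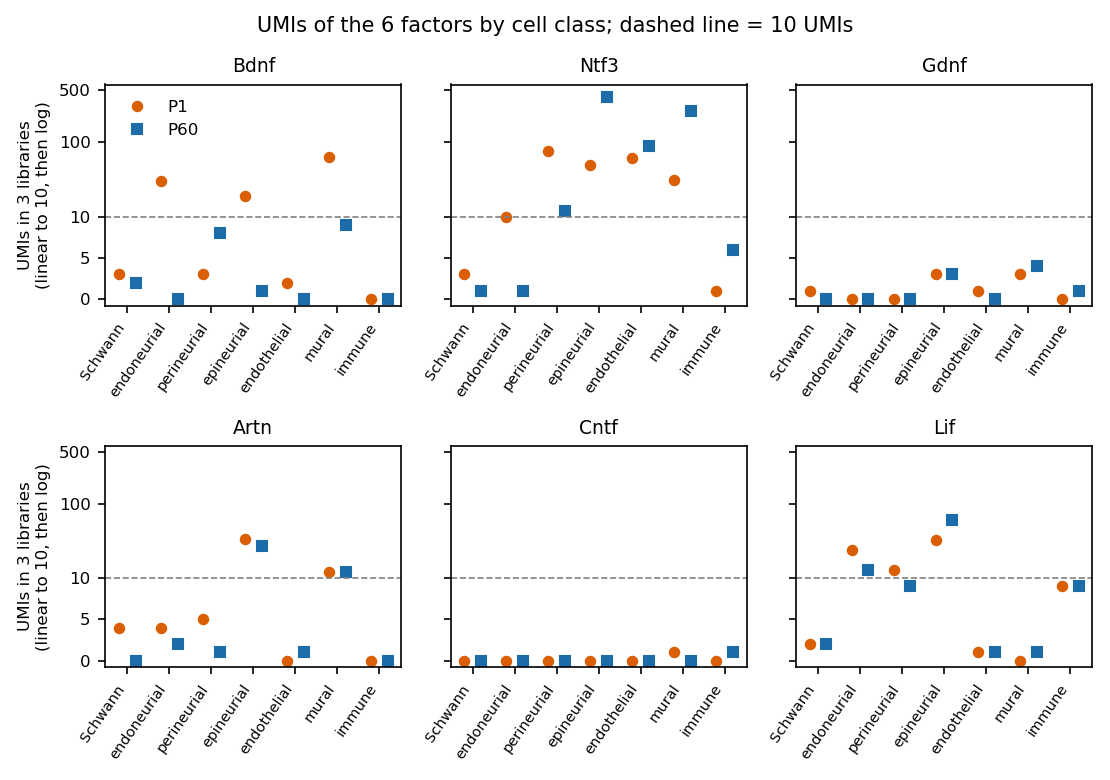
UMIs of the 6 factors (vertical axis, linear to 10 and logarithmic above) in each cell class, summed over the 3 libraries of P1 (orange circles) or P60 (blue squares), with a dashed line at the 10 UMIs needed for a call. Ntf3 lies above the line in most classes other than Schwann and immune cells, Bdnf lies above it only at P1, and no class reaches it for Gdnf or Cntf.

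Between the ages, the same classes were compared over libraries with edgeR's quasi-likelihood test, with Benjamini-Hochberg adjustment over all genes tested in the class. The low-count filter left 29 pairs of a gene and a class, and 21 of them passed the threshold of 0.05, 11 higher and 10 lower at P60. A large part of all genes changed as well. In Schwann cells 3 of 3 genes tested were higher at P60 and 0 lower, where 44.2% of all genes tested were called, 23.5% as higher and 20.7% as lower. Among all fibroblasts 2 of 7 were higher and 3 lower, beside 59.4% of all genes (30.8% higher, 28.6% lower). In endoneurial fibroblasts 1 of 3 was higher and 1 lower, beside 46.2% of all genes (23.5% higher, 22.6% lower). In perineurial fibroblasts 1 of 4 was higher and 3 lower, beside 54.3% (27.9% higher, 26.4% lower), and in epineurial fibroblasts 1 of 5 was higher and 2 lower, beside 48.3% (24.9% higher, 23.5% lower). In mural cells 3 of 4 were higher and 1 lower, beside 33.1% of all genes (17.8% higher, 15.3% lower). None was called of the 2 tested in endothelial cells, beside 40.4% (20.9% higher, 19.5% lower), or of the 1 tested in immune cells, beside 37.5% (20.1% higher, 17.4% lower). The genes that passed the filter are those with enough counts at either age, so these counts do not speak for all 9. None of the 21 calls was lost when P60 replicate 3 was left out.

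**Figure D2:**
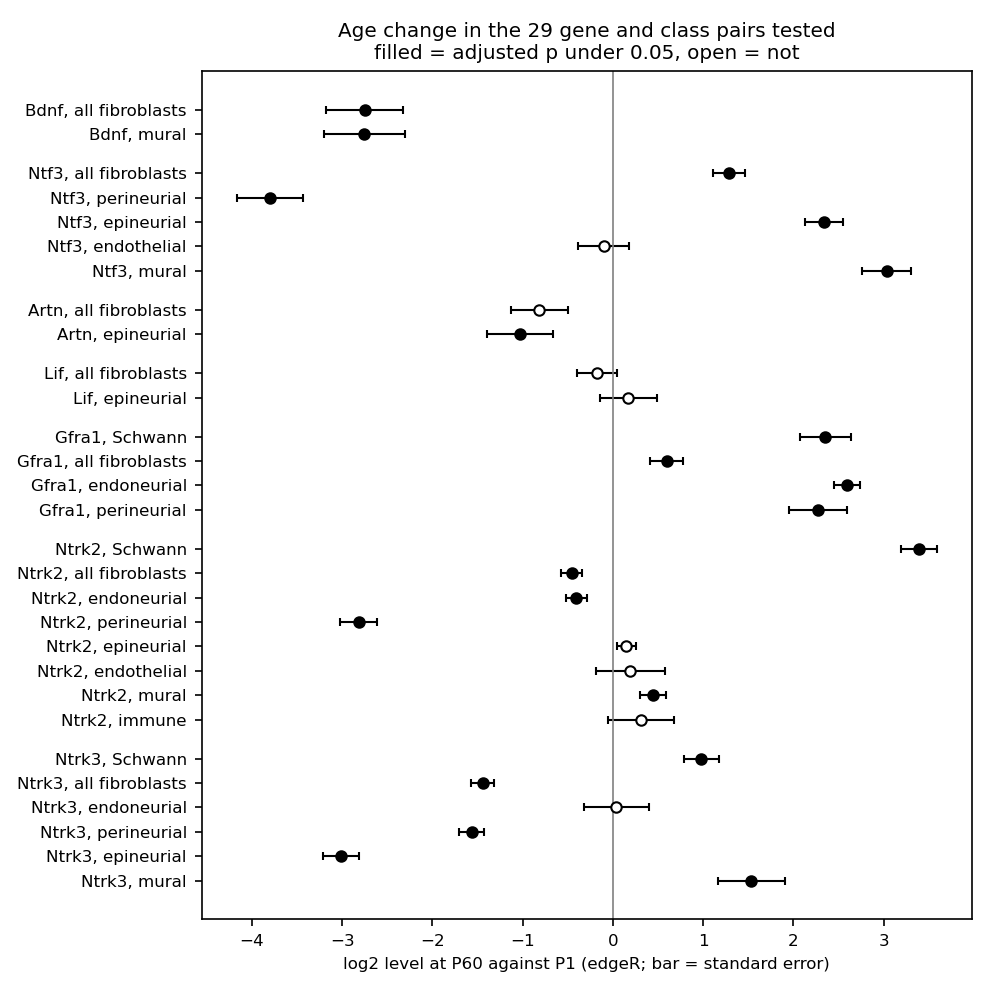
Difference between the ages (horizontal axis, log2 of the level at P60 against P1, edgeR estimate) for the 29 pairs of a gene and a class that were tested; bars are standard errors, and filled points have an adjusted p under 0.05. Ntf3 lies on opposite sides of 0 in perineurial cells (-3.80) and in mural and epineurial cells (3.03 and 2.34), and Ntrk2 in Schwann cells (3.39) and perineurial fibroblasts (-2.82).

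Bdnf (ENSMUSG00000048482, GRCm38 chr2:109674700-109727007, plus strand) was a transcript of mural cells at P1. Its level there was 15.2, 24.1 and 23.0 CPM in replicates 1, 2 and 3 (64 UMIs). The next class, endoneurial fibroblasts, was at 2.96, 2.81 and 1.48 CPM (30 UMIs), below the mural range, and was called as well. Epineurial fibroblasts had 19 UMIs (0.773 to 1.83 CPM) and were not called, because the carried-over level reached 1.08 CPM. The other classes had 0 to 3 UMIs each; in P1 immune cells, 0 UMIs allow a level of up to 0.378 CPM.

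At P60, Bdnf was too low to call in every class. Mural cells held 9 UMIs, at 5.18, 1.07 and 2.52 CPM, so the libraries of the ages did not overlap, and the level fell by 2.75 ± 0.45 on the log2 scale (SE, adjusted p = 0.000676). All fibroblasts together had 1.47, 1.49 and 1.41 CPM, and 0.135, 0.114 and 0.421 CPM at P60, a fall by 2.75 ± 0.43 (adjusted p = 0.000401). Endoneurial fibroblasts were at 0 UMIs at P60, which allows up to 0.996 CPM. Part of the Bdnf exons (14.4% of their bases) overlaps the antisense gene Gm45346 on the other strand.

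Ntf3 (ENSMUSG00000049107, chr6:126101412-126166910, minus strand), the gene of the ligand of TrkC, was the factor found most often, and the classes that held it differed between the ages. At P1 endothelial cells had 14.9, 8.74 and 8.59 CPM, perineurial fibroblasts 10.2, 13.4 and 7.75 CPM, and mural cells 10.8, 11.6 and 8.28 CPM. The ranges of these 3 classes overlapped. Epineurial fibroblasts lay below them at 2.89, 3.09 and 3.66 CPM and were called, and endoneurial fibroblasts were called on 10 UMIs, the least the rule allows, and fell under the minimum without any 1 of the P1 libraries, with 6, 7 and 7 UMIs left.

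At P60 mural cells led, with 82.9, 62.0 and 87.6 CPM (261 UMIs). Every P60 library lay above every P1 library, and the level was higher by 3.03 ± 0.27 on the log2 scale (adjusted p = 1.1e-05). Epineurial fibroblasts followed with 16.7, 19.3 and 13.6 CPM (410 UMIs), again without overlap between the ages, higher by 2.34 ± 0.22 (adjusted p = 6.5e-06). Perineurial fibroblasts went the other way: their 12 UMIs at P60 gave 0.625, 0.793 and 0.654 CPM, which was not called against a carried-over level of up to 2.07 CPM, and the level fell by 3.80 ± 0.37 (adjusted p = 1.5e-06). Markers moved in this class as well: its own 8 summed to 453.5 to 515.4 CPM at P1, below the 2093 to 2243 CPM of the 8 epineurial markers in the same cells, and to 5179 to 5304 CPM at P60, while the 10 mural markers went from 352.3 to 416.8 CPM up to 2853 to 3509 CPM, none of them at 0. Of the perineurial cells, 2.39% at P1 and 14.5% at P60 carried markers of another class, and without them the difference in Ntf3 was -3.76 (adjusted p = 1.36e-06). What part a different makeup of the class has in these differences was not tested.

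In endothelial cells Ntf3 was at 8.58, 10.7 and 9.64 CPM at P60. The ranges of the ages overlapped, and the difference was -0.10 ± 0.28 on the log2 scale (adjusted p = 0.796). Over all fibroblasts, where the subtypes are summed, Ntf3 was higher at P60 by 1.28 ± 0.18 (adjusted p = 2e-04), with 9.38 ± 1.56 CPM against 3.95 ± 0.36 CPM (mean and SD of 3 libraries). The change in mural cells exceeded that in endothelial cells by 3.12 ± 0.45 and that in fibroblasts by 1.81 ± 0.37, in a single fit with class by age terms (adjusted p = 1.35e-06 and 0.000265), where 17.1% and 21% of all genes tested were called.

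The P60 clusters showed where within a class Ntf3 lay. In mural cells, 258 of the 261 UMIs came from a cluster of 564 cells led by Myh11, Tpm2, Pln and Lmod1, contractile genes of smooth muscle, at 108.9 to 136.1 CPM. The mural cluster of 165 cells led by Ifitm1 and Rgs5, the latter a pericyte gene, held 0 UMIs of Ntf3. At P1 mural cells formed a single cluster, led by Acta2 and Rgs5, so a change in the mix of mural cells between the ages was not tested. The contractile cluster had 10.1% mitochondrial UMIs, and with only cells under 10% the mural difference was 2.97 (adjusted p = 4.3e-06).

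Among P60 endothelial cells, the largest cluster, 984 cells led by Cldn5, a tight junction gene, and Slco1a4, was at 0 to 2.66 CPM (8 UMIs). A cluster of 263 cells led by Aqp1, Lrg1, Plvap and Vwf had 38.2 to 45.5 CPM (50 UMIs). Outside the endothelial class, a cluster of 133 cells with haemoglobin genes among its leading genes took no class name and had 51.2 to 82.1 CPM (39 UMIs). Of all 874 UMIs of Ntf3 at P60, 95 lay in cells outside the classes used here. Epineurial fibroblasts were also uneven, with 26.2 to 29.2 CPM in the cluster led by Sfrp4 and Cilp and 3.35 to 8.04 CPM in the cluster led by Pi16.

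**Figure D3:**
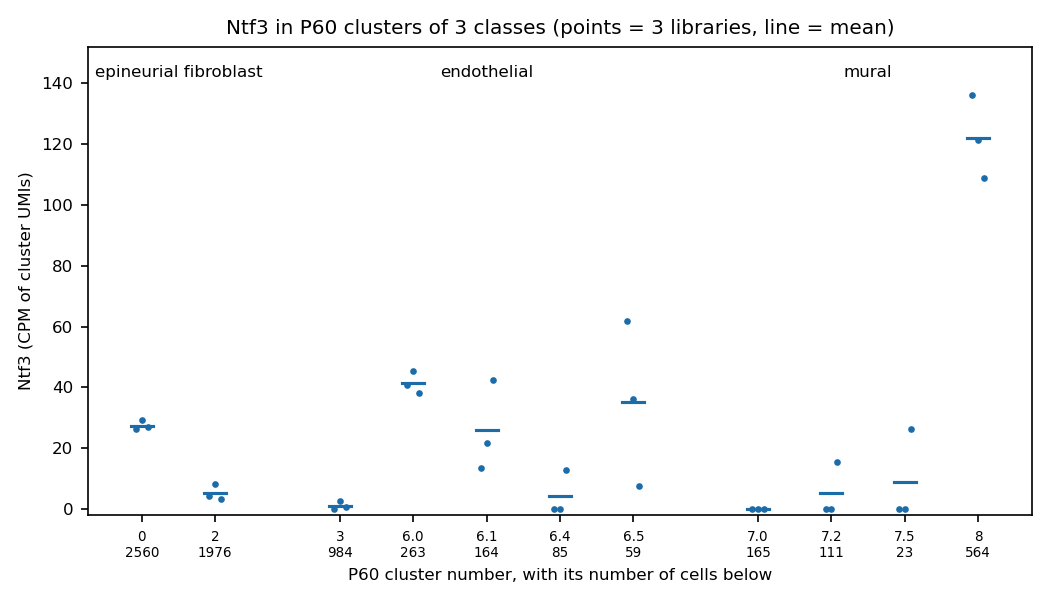
Level of Ntf3 (vertical axis, CPM of the cluster's UMIs) in the P60 clusters of epineurial fibroblasts, endothelial cells and mural cells (horizontal axis, cluster number with its number of cells below); points are the 3 libraries and lines their means. In mural cells cluster 8 lies at 108.9 to 136.1 CPM and cluster 7.0 at 0.

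Ntrk2 (ENSMUSG00000055254, chr13:58806569-59133970, plus strand) and Ntrk3 (ENSMUSG00000059146, chr7:78175959-78738012, minus strand) encode receptors with a full-length form and forms that lack the kinase, and 3′ counts summed per gene cannot tell these apart. Ntrk2 was widespread in nerve fibroblasts and mural cells. At P1 it was 194.6, 198.7 and 207 CPM in endoneurial fibroblasts, above every other class. Mural cells (149.5, 126.3 and 155.4 CPM) and epineurial fibroblasts (141.6, 141.7 and 136.1 CPM) followed with overlapping ranges. Perineurial fibroblasts came next at 69.7, 73.9 and 77.5 CPM.

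Schwann cells gained Ntrk2. They held it at 10.7, 15.9 and 15.1 CPM at P1, where the range overlapped that of endothelial cells, and at 142.7, 188.6 and 129.5 CPM at P60. The ages did not overlap, and the level was higher at P60 by 3.39 ± 0.20 on the log2 scale (adjusted p = 1.1e-09), or by 3.73 without the cells that carried markers of another class. The difference in Schwann cells exceeded that in fibroblasts by 3.83 ± 0.29, in endothelial cells by 3.12 ± 0.48, in mural cells by 2.88 ± 0.31 and in immune cells by 3.05 ± 0.50, and each of the 4 passed the threshold. Of all genes tested, 30.9%, 27.7%, 20.2% and 21.9% passed it in these comparisons. Ntrk2 did not pass for endothelial or immune cells against fibroblasts, where 30.2% and 30% of all genes did. Nor did it for immune against endothelial (22.6%), immune against mural (17.5%) or mural against endothelial cells (17.1%). It did for mural cells against fibroblasts (0.95, beside 21% of all genes). Without cells that carried markers of another class, the difference of endothelial cells from fibroblasts was 1.72 and passed (adjusted p = 0.00054). The P1 call in Schwann cells was close to the carried-over level (up to 13.5 CPM, below the level of the same library), and it was lost under the other normalization total in the clustering.

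In perineurial fibroblasts Ntrk2 moved down, to 14.2, 9.78 and 6.97 CPM at P60, a fall by 2.82 ± 0.21 (adjusted p = 1.1e-07), or by 2.79 without cells that carried markers of another class. The class was called at P60 on 174 UMIs, but not when carried-over RNA from any other class was allowed for. What part the change of markers in this class has in the fall was not tested. Endoneurial fibroblasts fell less, to 135.6, 129.2 and 162.1 CPM, by 0.41 ± 0.12 (adjusted p = 0.0106). In epineurial fibroblasts the level was 164.8, 156.7 and 150.5 CPM at P60; it did not overlap with P1, but the difference of 0.15 ± 0.10 missed the threshold (adjusted p = 0.254), which it passed without P60 replicate 3 (0.20, adjusted p = 0.00357). Over all fibroblasts, where the subtypes are summed, the level fell by 0.46 ± 0.11 (adjusted p = 0.00604). Perineurial cells were 880 of the 5700 fibroblasts at P1 and 2458 of the 7853 at P60. What part this change of mix has in the pooled fall was not tested.

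Mural cells held Ntrk2 at 173.5, 203.1 and 169.5 CPM at P60, higher than at P1 by 0.44 ± 0.14 (adjusted p = 0.0322). This call was lost in 9 of the 14 alternatives, among them DESeq2 (adjusted p = 0.2), and without P1 replicate 1 (0.0904), P1 replicate 2 (0.182), P1 replicate 3 (0.0879) or P60 replicate 2 (0.0832). In endothelial and immune cells Ntrk2 was low at both ages and no difference passed the threshold. Endothelial levels were 11.1, 4.11 and 18.2 CPM at P1, not called against a carried-over level of up to 6.80 CPM, and 16.0, 10.7 and 11.0 CPM at P60, which was called. Mural markers in endothelial cells moved too: the 10 of them summed to 160.3 to 390.6 CPM at P1 and 1535 to 2192 CPM at P60, with none of the 10 at 0, and without cells that carried markers of another class the endothelial difference in Ntrk2 was 1.30 (adjusted p = 0.024).

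Ntrk3 was led at P1 by the class named as perineurial fibroblasts, with 65.3, 72.6 and 75.3 CPM. Schwann cells (37.6, 37.9 and 37.4 CPM) and epineurial fibroblasts (35.8, 34.8 and 39.0 CPM) overlapped below them. Mural, endoneurial and endothelial cells were at 13.7, 6.94 and 5.23 CPM on average and were not called against the carried-over level, and immune cells were called on 31 UMIs at 3.89 CPM. At P60 every class was called, but immune cells (21 UMIs) dropped to 9 UMIs, under the minimum, without P60 replicate 3. Endoneurial and endothelial cells were called there at averages of 6.65 and 2.79 CPM, which were no higher than at P1. The carried-over level they were set against was up to 8.29 and 4.77 CPM at P1, and up to 0.551 and 0.720 CPM at P60.

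At P60 the order was turned round, with Schwann cells first. Their levels of 85.0, 49.5 and 96.6 CPM lay above P1 in every library, by 0.98 ± 0.20 on the log2 scale (adjusted p = 0.000777), or by 1.22 without cells that carried markers of another class. In perineurial fibroblasts Ntrk3 fell to 22.9, 22.5 and 25.9 CPM, by 1.56 ± 0.14 (adjusted p = 6.6e-07), or by 1.60 without cells that carried markers of another class, and in epineurial fibroblasts to 3.25, 4.41 and 6.48 CPM, by 3.01 ± 0.20 (adjusted p = 5.4e-07). Neither overlapped between the ages. What part the change of markers in the perineurial class has in its fall was not tested. Endoneurial fibroblasts were at 6.24, 5.34 and 8.37 CPM, a difference of 0.04 ± 0.36 (adjusted p = 0.941).

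Mural cells had 13.0, 9.64 and 18.4 CPM of Ntrk3 at P1 and 37.6, 21.4 and 48.5 CPM at P60, without overlap, a difference of 1.53 ± 0.38 (adjusted p = 0.00837). Without P1 replicate 2 it was 1.32 and just missed the threshold (adjusted p = 0.0501). As with Ntf3, 121 of the 126 UMIs at P60 lay in the contractile cluster, at 33.5 to 61.7 CPM, while the cluster led by Ifitm1 and Rgs5 had 0. The change in mural cells exceeded that in fibroblasts by 2.96 ± 0.28, and that in fibroblasts lay below that in Schwann cells by 2.32 ± 0.23, both past the threshold.

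**Figure D4:**
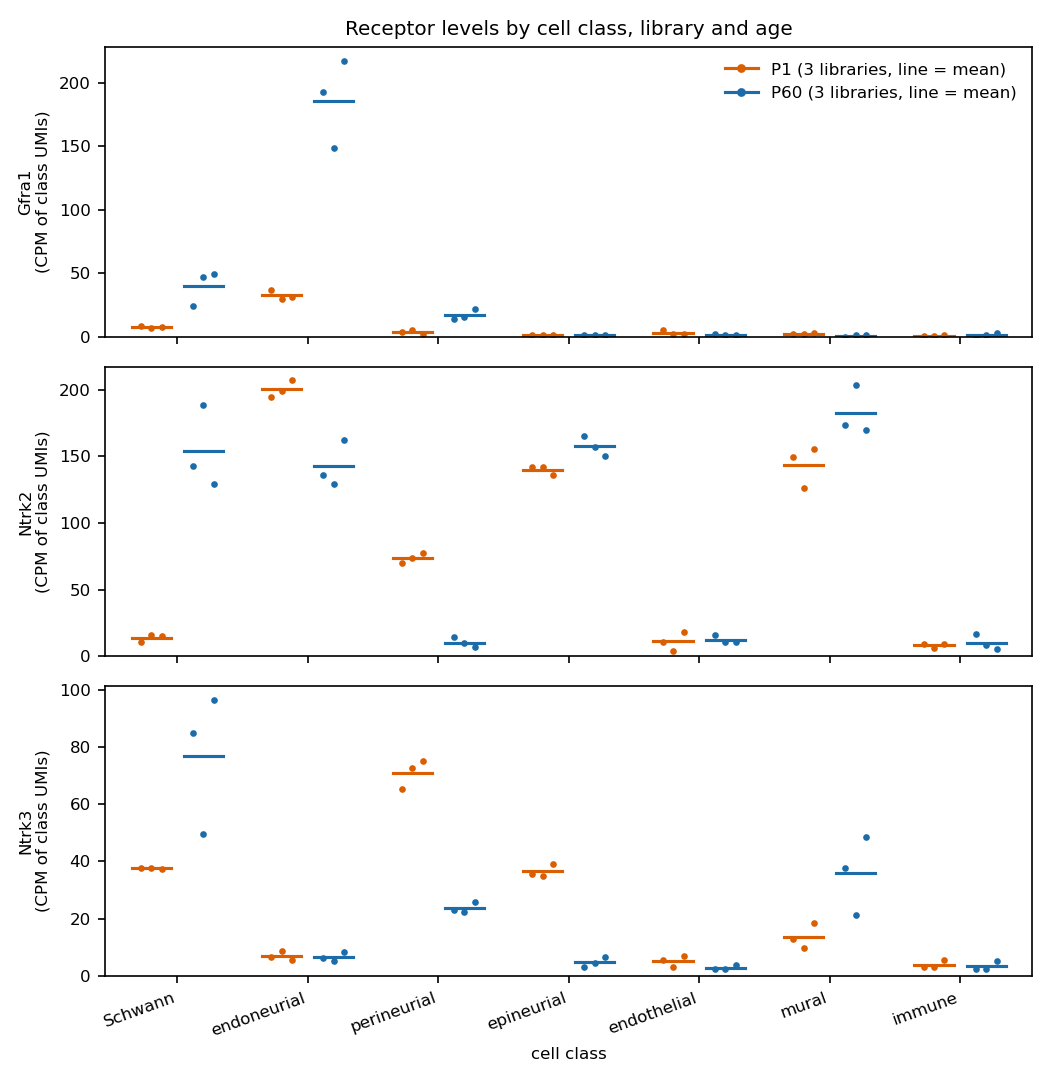
Levels of Gfra1, Ntrk2 and Ntrk3 (vertical axes, CPM of the class UMIs) in 7 cell classes (horizontal axis); points are the 3 libraries of P1 (orange) or P60 (blue) and lines their means. Schwann cells lie higher at P60 for all 3 receptors, and perineurial fibroblasts lie lower at P60 for Ntrk2 and Ntrk3.

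Gdnf (ENSMUSG00000022144, chr15:7810846-7837575, plus strand) was too low to call in every class at both ages, with 8 UMIs at P1 and 9 at P60 in all. Mural cells held 3 of these UMIs at P1, all in replicate 1, and 4 at P60, at 1.30, 0 and 1.89 CPM. Schwann cells held 1 UMI at P1 and 0 at P60. The latter allows a level of up to 2.42 CPM, a wide limit because there were 420 cells.

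Artn (ENSMUSG00000028539, chr4:117926162-117929763, minus strand) was called in mural cells and epineurial fibroblasts at both ages and was too low to call elsewhere. Mural cells were at 5.42, 1.93 and 4.60 CPM at P1 and 2.59, 2.14 and 5.04 CPM at P60, on 12 UMIs at each age, and the ranges overlapped. All 12 UMIs of P60 lay in the contractile cluster. The mural calls fell under 10 UMIs without P1 replicate 1 (7 UMIs), P1 replicate 3 (7 UMIs) or P60 replicate 3 (4 UMIs).

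In epineurial fibroblasts Artn was at 2.44, 2.51 and 1.83 CPM at P1 and 1.46, 0.773 and 1.11 CPM at P60. The ages did not overlap and the level fell by 1.03 ± 0.37 on the log2 scale (adjusted p = 0.038), but this call did not hold in 7 of the 14 alternatives: with DESeq2 the adjusted p was 0.1945, and it was 0.1155 without P1 replicate 1, 0.1295 without P1 replicate 2, 0.058 without P1 replicate 3 and 0.1395 without P60 replicate 2. Over all fibroblasts the difference of -0.81 ± 0.32 missed the threshold (adjusted p = 0.0517), and passed it without P60 replicate 1 (-1.06, adjusted p = 0.0373).

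Gfra1 (ENSMUSG00000025089, chr19:58235604-58455909, minus strand), the co-receptor gene for GDNF, marked endoneurial fibroblasts, and its level there rose. It was at 36.5, 30.1 and 31.7 CPM at P1 and 192.7, 148.4 and 217.6 CPM at P60, above every other class at both ages. The difference was 2.59 ± 0.15 on the log2 scale (adjusted p = 3.9e-09). Schwann cells were second at both ages. They held 8.77, 6.95 and 7.84 CPM at P1 and 24.3, 47.2 and 49.3 CPM at P60, a difference of 2.35 ± 0.29 (adjusted p = 6.9e-06), or 2.32 without cells that carried markers of another class. Of the 52 UMIs at P60, 31 lay in a subcluster of 108 cells led by fibroblast genes, described below. The part of that subcluster in the level and the difference was not tested.

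Perineurial fibroblasts had 3.67, 5.38 and 1.84 CPM of Gfra1 at P1 and 13.7, 15.9 and 21.6 CPM at P60, higher by 2.27 ± 0.32 (adjusted p = 4.5e-05). Neither level was called, since RNA carried over from endoneurial fibroblasts would give up to 8.93 CPM at P1 and 7.70 to 19.0 CPM at P60. At P60 the class was called without P60 replicate 1 (219 UMIs) or with only cells under 10% mitochondrial counts (258 UMIs). Endothelial cells were called at P1 on 17 UMIs, and fell to 8 UMIs, under the minimum, without P1 replicate 1.

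Over all fibroblasts the level of Gfra1 went from 13.8 ± 1.17 to 20.6 ± 5.63 CPM (mean and SD of 3 libraries), a difference of 0.59 ± 0.18 (adjusted p = 0.0174). It lost its call without P1 replicate 2 (0.57, adjusted p = 0.0621) or P1 replicate 3 (0.52, adjusted p = 0.0721). Epineurial fibroblasts, which make up more of the fibroblasts at P60, were at 1.43 ± 0.28 and 1.40 ± 0.07 CPM and were called at neither age. The exons of Gfra1 overlap the antisense gene Gm16277 over 7.60% of their bases.

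Cntf (ENSMUSG00000079415, chr19:12763660-12765632, minus strand) had 1 UMI at P1, in a mural cell, and 1 UMI at P60, in an immune cell. Schwann cells held 0 UMIs at both ages, which allows up to 0.145 CPM at P1 and 2.42 CPM at P60. The place of this gene can limit its detection. In GENCODE M21, 847 of its 1073 exon bases (78.9%) lie within exons of Zfp91 on the same strand. Reads that match exons of more than 1 gene are left out of UMI counts. How far this lowered the counts of Cntf was not tested. Zfp91, a zinc finger gene, had 5052 UMIs at P1 and 4169 at P60 and was found in 32.2% and 25.4% of the cells. Whether any of these molecules were Cntf was not tested, so the counts of Cntf say little about its level.

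Lif (ENSMUSG00000034394, chr11:4257557-4272514, plus strand) was called in fibroblasts alone. At P1 epineurial fibroblasts had 2.00, 1.74 and 2.74 CPM, endoneurial fibroblasts 2.96, 1.28 and 1.48 CPM and perineurial fibroblasts 2.45, 1.79 and 1.11 CPM. These ranges overlapped, and the perineurial call, on 13 UMIs, fell to 7 UMIs without P1 replicate 1 and 9 UMIs without P1 replicate 2. At P60 endoneurial fibroblasts had 5.35, 2.14 and 5.23 CPM on 13 UMIs, which fell to 7 without P60 replicate 1 and 8 without P60 replicate 3, and epineurial fibroblasts 1.91, 2.65 and 3.00 CPM.

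No difference in Lif between the ages passed the threshold. It was 0.17 ± 0.32 on the log2 scale in epineurial fibroblasts (adjusted p = 0.688) and -0.17 ± 0.22 over all fibroblasts (adjusted p = 0.524). Immune cells had 9 UMIs at each age and were too low to call, and at P60 all 9 came from the cluster of 450 cells led by Cd74 and H2-Aa, genes of antigen presentation. At P1 they were at 0.737 to 1.47 CPM, above a carried-over level of up to 0.121 CPM. With a minimum of 5 UMIs immune cells were called at P1 and not at P60. In P1 fibroblasts without a subtype, the cluster with 20.9% mitochondrial UMIs was at 5.31 to 14.5 CPM on 8 UMIs.

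Schwann cells were clustered again within each age, and the 3 receptors divided between the subclusters. The P60 subcluster of 160 cells with markers of non-myelinating Schwann cells (L1cam, Scn7a, Cdh2 and Matn2) held Ntrk2 at 242.9 to 335.6 CPM and Ntrk3 at 129.1 to 259.4 CPM. The P60 subclusters with myelinating markers, of 90 and 62 cells, held Ntrk2 at 32.6 to 80.6 CPM and 0 to 13.8 CPM, and Ntrk3 at 0 to 34.2 CPM and 0 to 12.2 CPM. Both receptors had their highest mean in the subcluster with non-myelinating markers, on 93 of 190 and 68 of 96 UMIs.

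Gfra1 had its lowest mean at P60 in the non-myelinating subcluster, but on few UMIs. It was at 5.17 to 15.3 CPM there, on 3 UMIs. The myelinating subclusters were at 21.7 to 40.3 CPM and 27.7 to 70.5 CPM, on 7 and 11 UMIs. Only the last of these counts reaches the 10 UMIs needed for a call. A further P60 subcluster, of 108 cells led by fibroblast genes such as Dpt and Clec3b, held Gfra1 at 17.1 to 134.2 CPM and Ntrk2 at 100.7 to 247.4 CPM, where the range of Ntrk2 overlapped that of the non-myelinating subcluster. It held 31 of the 52 UMIs of Gfra1 in P60 Schwann cells, more than the other subclusters together, and 82 of the 190 of Ntrk2.

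At P1 the highest level of Ntrk2 was in a subcluster of 110 cells led by Dcn, Dlk1 and Igf1, fibroblast genes among them, at 42.0 to 79.9 CPM (72 of 291 UMIs), with Gfra1 at 9.84 to 32.3 CPM. Among subclusters with Schwann markers, the one with non-myelinating or immature markers (877 cells) held Ntrk2 at 18.7 to 24.7 CPM and Ntrk3 at 84.9 to 92.4 CPM. The larger myelinating subcluster (640 cells) held Ntrk2 at 2.63 to 4.31 CPM, Ntrk3 at 3.23 to 5.12 CPM and Gfra1 at 11.3 to 13.8 CPM, against 3.50 to 5.07 CPM of Gfra1 in the former. The subclusters come from the same cells as the levels, so no test was made.

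**Figure D5:**
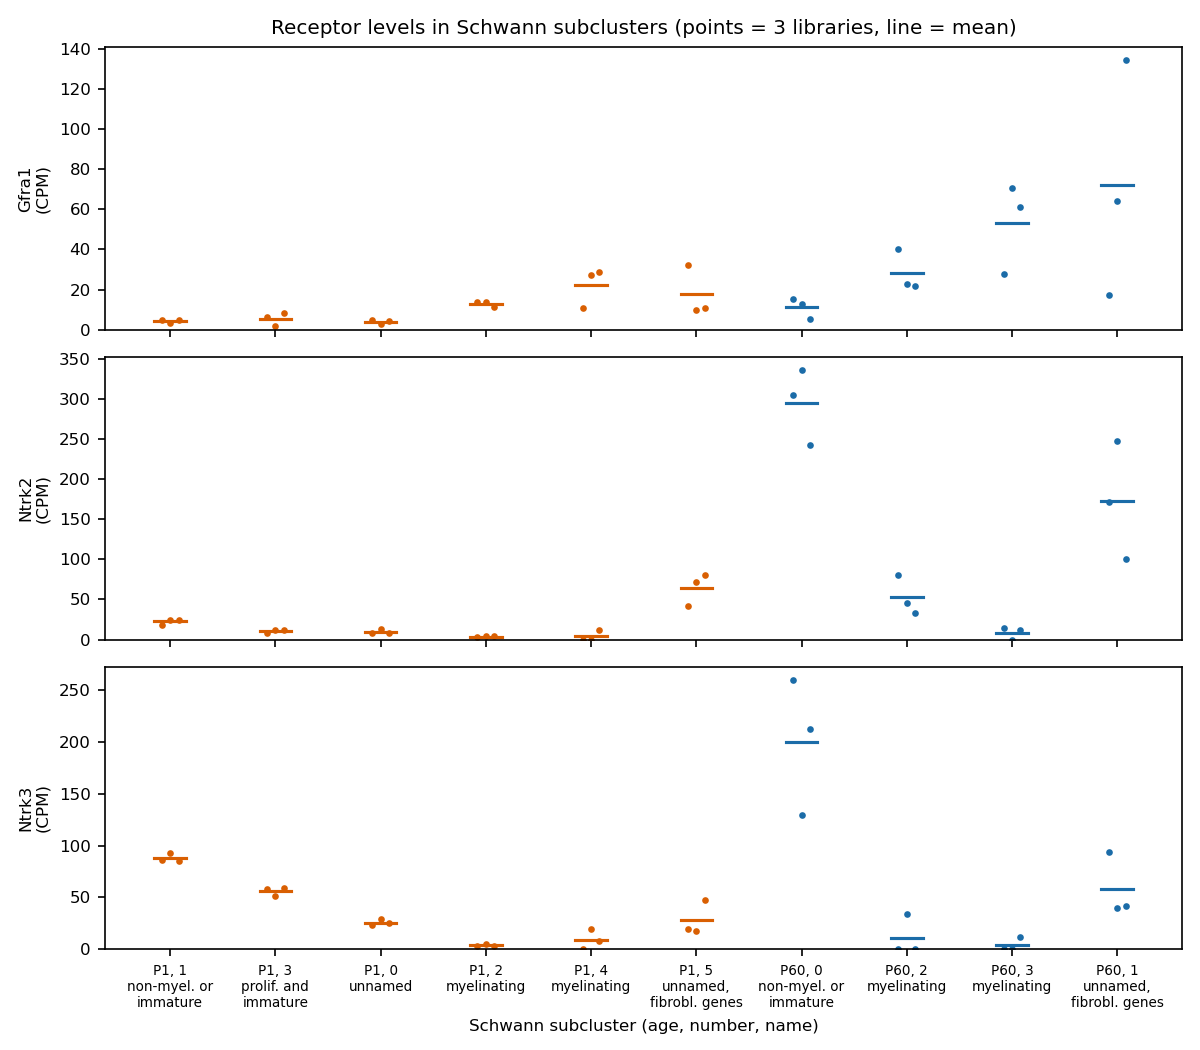
Levels of Gfra1, Ntrk2 and Ntrk3 (vertical axes, CPM of the subcluster's UMIs) in subclusters of Schwann cells at P1 (orange) and P60 (blue); points are the 3 libraries and lines their means. At P60 Ntrk2 lies at 242.9 to 335.6 CPM in the subcluster with non-myelinating markers and at 0 to 80.6 CPM in those with myelinating markers.

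The share of cells with at least 1 UMI was compared after thinning every cell to 1500 UMIs, since P60 cells were shallower; 0 cells at P1 and 108 at P60 were left out as shallower than that. Of the 43 pairs of a gene and a class considered, 22 had shares that did not overlap between the ages, and the exact permutation test over 3 against 3 libraries cannot go below p = 0.1. Among all genes the share that did not overlap was 46.8% for fibroblasts, 38.4% for Schwann cells, 30.7% for endothelial cells, 29.8% for mural cells, 29.7% for immune cells, and 35.9%, 39.6% and 41.1% for endoneurial, perineurial and epineurial fibroblasts. Shares in immune cells are given beside these as a comparison. They are a background for Ntf3 and Gfra1, which immune cells did not hold by the rule above, but not for Ntrk2 at P60 or for Ntrk3, which they did. The call of Ntrk2 in P60 immune cells (58 UMIs) was lost when carried-over RNA from any other class was allowed for.

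Ntrk2 was found in 2.05% ± 0.45 of thinned P1 Schwann cells and 19.5% ± 1.19 of thinned P60 Schwann cells (mean and SD of 3 libraries, exact permutation p = 0.1), and without thinning in 7.35% and 32.1%. In immune cells the thinned share was 0.759% and 0.950%. The median depth was 6057 and 2332.5 UMIs in Schwann cells and 6815.5 and 3723 UMIs in immune cells. Ntrk3 was found in 5.89% ± 1.00 and 13.0% ± 4.54 of thinned Schwann cells, against 0.580% and 0.475% of immune cells, but without thinning the Schwann shares were 18.3% and 19.0%.

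For Ntf3 the thinned share in mural cells was 0.983% ± 0.81 at P1 and 10.6% ± 2.18 at P60 (exact p = 0.1), where immune cells had 0 at both ages after thinning. Gfra1 was found in 4.67% ± 0.65 and 22.0% ± 7.55 of thinned endoneurial fibroblasts (exact p = 0.1), against 0.102% and 0.190% of immune cells. In perineurial fibroblasts the share with Ntrk2 was 11.3% ± 1.96 and 1.41% ± 0.58. Bdnf in mural cells was found in 2.21% ± 0.74 and 0.752% ± 0.76, which overlapped (exact p = 0.2).

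The other genes of the 3 signalling systems were described with a list of 24, of which the low-count filter left 10 to 22 per class. In Schwann cells 12 of 13 were higher at P60 and 0 lower; the median difference of the 13 was 2.31 on the log2 scale, beside 0.04 for all genes tested, of which 23.5% were called as higher. Without cells that carried markers of another class, an alternative chosen after seeing the data, 9 of 12 were higher and 0 lower. The median of the 12 was 2.17. What part the fibroblast markers described above have in these differences was not tested further. Among these were Gfra3, the co-receptor gene for artemin (11.0 CPM at P1 and 48.5 CPM at P60 on average, a difference of 2.11, or 2.49 without those cells), Cntfr (4.87 and 25.3 CPM, 2.31 or 2.51) and Il6st (21.4 and 114 CPM, 2.39 or 2.55). In the non-myelinating subcluster of P60 Gfra3 was at 93.0 to 361.4 CPM, and in the myelinating subclusters at 0.

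Ret, the kinase that signals with GFRA1, was called as higher at P60 in endoneurial fibroblasts (0.255 and 16.3 CPM, 5.93), where Gfra1 was also higher, and in endothelial cells (1.23 and 18.1 CPM, 3.87), where Gfra1 was at 1.46 ± 0.46 CPM. Cntfr was higher in perineurial fibroblasts (67.7 and 279 CPM, 2.06) and lower in endoneurial fibroblasts (34.2 and 7.86 CPM, -2.01). Ngfr, the p75 receptor that all neurotrophins bind, was lower in each class of fibroblast, from 367 to 127 CPM in endoneurial fibroblasts (-1.44), from 83.5 to 1.52 CPM in perineurial (-5.87) and from 47.6 to 2.05 CPM in epineurial fibroblasts (-4.52). By class, the list had 8 higher and 7 lower of 16 tested in endoneurial fibroblasts (46.2% of all genes called), 8 and 6 of 17 in perineurial (54.3%), 4 and 8 of 18 in epineurial (48.3%), 7 and 3 of 13 in mural cells (33.1%), 7 and 2 of 10 in endothelial cells (40.4%) and 6 and 3 of 10 in immune cells (37.5%).

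For each of the 9 genes with at least 200 UMIs, the genes with the most similar pattern over the 42 sums of 7 classes and 6 libraries were sought by Pearson's r of log2(CPM + 10). The 42 sums share libraries and cell classes, so r is given as a description. Nearest to Ntrk2 were Cygb (0.90), Shox2 (0.88) and Meis3 (0.86), to Ntrk3 Col27a1 (0.87), Fxyd7 (0.84) and Fgf1 (0.82), and to Gfra1 Scgb1a1 (0.89), Cdkn2a (0.89) and Rgmb (0.88). Nearest to Ntf3 were Stk38l (0.86), C2cd2 (0.86) and Aoc3 (0.84), and to Lif Adam5 (0.81), Gm42970 (0.78) and Gm42973 (0.77).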

How the data were processed

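The deposited files hold raw UMI counts per gene and cell barcode, which the authors made with Cell Ranger 2.0.2 and, per the labels, the mouse build GRCm38.p5; the methods text names a human build for this step. From these counts, cells with 500 to 5000 genes were kept and clustered within each age with Seurat 5.3.0 (R 4.3.3; 10 principal components, normalization total 10000), with the 9 genes and 24 pathway genes left out of the features. Clusters were named from marker lists (at least 3 markers at 2-fold or more), with naming thresholds that were set after the data were seen. No doublet caller was run, and cells that held markers of another class were left out in an alternative.

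Counts were summed per library and class and tested with edgeR 4.0.16 (quasi-likelihood, TMM, low-count filter, Benjamini-Hochberg adjustment over all genes tested in a class, threshold 0.05); the difference of age changes between classes was tested in a single fit of class by age terms. Alternatives were DESeq2 1.42.0, library size alone, no filter, a replicate block, cells under 10% mitochondrial counts and leaving out each library. A count of 0 was given the limit of 3 counts over the class; limits cover counting error only. Tests were tried on simulated counts with 200 changed genes. These were drawn from tested genes above a minimum count at P1, with a single dispersion for all genes. Genes with fewer counts were not covered. Of the 4-fold changes that passed the low-count filter, 100% were recovered in fibroblasts, 83.5% in Schwann cells and 96.6% in mural cells. Of 2-fold changes, 88.8% were recovered in fibroblasts, 49.5% in Schwann cells and 52.1% in mural cells. A difference of that size can therefore miss the threshold, above all in the last 2 classes. Positions are those of GENCODE M21 on GRCm38. All 9 genes are named throughout, and other genes were named as leading genes of a cluster, from the pathway list or as the 3 nearest patterns; Zfp91 and the antisense genes were named because they overlap the 9. The genes, gene lists and classes were chosen with earlier results of these data known.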

Additional observations from a re-analysis of the deposited data

Results flagged for a closer look

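These results were singled out because the change between the ages differed between cell classes in a test of the difference itself (edgeR's quasi-likelihood test of class by age terms over the 6 libraries). Of 60 differences tested, 21 passed the threshold, where 17.1% to 30.9% of all genes tested passed it in a pair of classes. All values are differences of log2 changes, the first class minus the second.

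Against Schwann cells, the change in fibroblasts differed by -3.83 for Ntrk2, -2.32 for Ntrk3 and -1.69 for Gfra1. The change in endothelial cells differed from that in Schwann cells by -3.12 for Ntrk2, -1.71 for Ntrk3 and -3.20 for Gfra1, that in mural cells by -2.88 for Ntrk2 and -3.52 for Gfra1, and that in immune cells by -3.05 for Ntrk2. The call for Ntrk3 in endothelial cells was lost without P1 replicate 3, and so was that for Gfra1 in mural cells, which rests on 10 mural UMIs; both were also lost without cells that carried markers of another class.

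For Bdnf the differences from Schwann cells were -5.73 in fibroblasts, -6.80 in endothelial cells and -5.98 in mural cells. They rest on 5 UMIs of Bdnf in Schwann cells and, in endothelial cells, on 2. The calls in fibroblasts and mural cells were lost without P60 replicate 1 or P60 replicate 3, and that in endothelial cells was lost in 6 of 7 alternatives, all but the one without P1 replicate 1.

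Among the other classes, mural cells differed from fibroblasts by 1.81 for Ntf3, 0.95 for Ntrk2 and 2.96 for Ntrk3. From endothelial cells they differed by 3.12 for Ntf3 and 2.35 for Ntrk3, the last lost without cells that carried markers of another class. Fibroblasts are summed over subtypes in these tests, and their Ntf3 changes were opposite (-3.80 in perineurial and 2.34 in epineurial fibroblasts). The mural difference of Ntrk2 between the ages was by itself lost in most alternatives, as given above. Endothelial cells differed from fibroblasts by -1.31 for Ntf3, a call lost without P1 replicate 1, and by -1.51 for Gfra1, lost without P1 replicate 1 or P60 replicate 3. Immune cells differed from fibroblasts by 1.33 and from mural cells by -1.63 for Ntrk3. The former was lost without P1 replicate 1, P1 replicate 2 or P60 replicate 3, and the latter in 5 of 7 alternatives, holding without P1 replicate 1 or P60 replicate 2.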

How the results depend on the processing

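Of the 29 pairs tested for an age difference, 21 passed the threshold, 19 to 21 did under the other tools, filters, cell sets and normalizations (19 with DESeq2 or without the filter), and 17 to 22 when 1 library was left out. Counted over all pairs that an alternative could test, which some widened, these ranges were 20 to 21 and 17 to 23. The 21 differences between classes became 18 without cells that carried markers of another class and 15 to 20 without 1 library. The 47 combinations that held a transcript became 52 with a minimum of 5 UMIs, where Bdnf was held in 4 combinations in place of 2, 44 with carried-over RNA from any class, 45 with the other normalization total and 44 to 48 without 1 library. The calls lost with carried-over RNA from any class were Ntf3 at P1 in endoneurial fibroblasts and Ntrk2 at P60 in perineurial fibroblasts and immune cells. Shares that did not overlap numbered 22, 18 after thinning to 1000 UMIs, 27 without thinning and 23 to 25 without 1 library. Without thinning, 4 differences in shares (P60 minus P1, in percentage points) changed sign: Gfra1 in fibroblasts (-0.570), Artn in mural cells (-0.805), Lif in endoneurial fibroblasts (-0.115) and Ntrk2 in epineurial fibroblasts (-2.34), and P60 cells had fewer UMIs. Replicate numbers did not pair the libraries (correlations of same-numbered libraries from -0.0845 to 0.0778), and a replicate block left 20 calls, losing Ntrk2 in mural cells (adjusted p = 0.0506). Gdnf and Cntf were called in no class in any alternative run.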
